A study of Mus musculus with 3 samples.

Results

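The H/ACA small nucleolar RNAs and small Cajal body RNAs of mouse macrophage chromatin are described here. They were taken as every annotated gene whose symbol starts with Snora or Scarna, which gave 51 genes (42 Snora and 9 Scarna) of 55536 annotated genes. The libraries are 3 biological replicates of 1 group. C57BL/6J macrophages (BMDM), phagocytes grown in culture from bone marrow, had been given lipid A at 100 ng/ml for 120 min. Lipid A is the part of bacterial lipopolysaccharide that the receptor TLR4 recognises. RNA came from the chromatin fraction and was sequenced as total RNA after removal of ribosomal RNA. The labels give 1 donor for all 3 libraries, a size range of 250 to 400, and starting RNA of 1 µg in replicate 1, 250 ng in replicate 2 and 500 ng in replicate 3. Sex and age were not recorded. No untreated group was analysed here, so there is no contrast between conditions, and every p below compares libraries or tables of libraries whose spread may be technical.

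H/ACA RNAs fold into hairpins that are joined by a hinge, the H box, and end in a tail with the letters ACA. They hold the proteins dyskerin (Dkc1), Nop10, Nhp2 and Gar1, and most guide dyskerin to a uridine of ribosomal RNA that becomes pseudouridine. Small Cajal body RNAs guide the same kind of change, or 2′-O-methylation, in spliceosomal RNAs, and stay in Cajal bodies. Most Snora RNAs of vertebrates are cut out of introns of a host gene after splicing, so that the nascent transcript and the mature RNA are both found in the nucleus.

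The sequences that the values below turn on were read from the GENCODE M21 transcripts, which are on the mm10 build. Capitals mark the letters ANANNA (the H box pattern) in the middle part of the RNA (from 1/3 to 2/3 of its length), and the ACA that stands 3 nt before the 3′ end. The near-identical pair Snora73a and Snora73b is shown because reads of one could be counted for the other. The pair is the mouse U17, which acts in cleavage of ribosomal RNA precursors and not as a pseudouridine guide. Snora73a lies at chr4:132352775-132352979 and Snora73b at chr4:132352322-132352526, both on the minus strand inside Rcc1.
Snora73a: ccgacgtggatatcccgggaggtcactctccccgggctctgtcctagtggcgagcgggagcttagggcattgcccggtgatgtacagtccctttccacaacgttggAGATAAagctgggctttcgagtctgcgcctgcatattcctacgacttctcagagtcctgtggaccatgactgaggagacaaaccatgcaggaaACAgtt
Snora73b: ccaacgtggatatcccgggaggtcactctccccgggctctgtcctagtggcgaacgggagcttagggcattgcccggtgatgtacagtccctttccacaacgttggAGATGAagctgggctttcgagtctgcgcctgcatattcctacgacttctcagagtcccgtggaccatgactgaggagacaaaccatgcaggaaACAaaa
The entries are 205 nt each and differ at 7 positions (96.6% identity). Written with the Snora73a base first and positions counted from the 5′ end, the differences are G3A, G54A, A111G, T164C, G203A, T204A and T205A, and the last ones are in the tail after the ACA. Scarna10 (chr6:125186359-125186683, of which chr6:125186448-125186596 is printed, minus strand, partly in an exon of a transcript of Ncapd2) and Scarna13 (chr12:105031075-105031349, minus strand, in an intron of Snhg10) are shown as the most abundant RNA and as a Scarna gene with an ACA at its end.
Scarna10 (bases 88 to 236 of 325): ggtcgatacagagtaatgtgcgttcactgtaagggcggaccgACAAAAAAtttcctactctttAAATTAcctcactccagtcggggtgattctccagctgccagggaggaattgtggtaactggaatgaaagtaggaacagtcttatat
Scarna13: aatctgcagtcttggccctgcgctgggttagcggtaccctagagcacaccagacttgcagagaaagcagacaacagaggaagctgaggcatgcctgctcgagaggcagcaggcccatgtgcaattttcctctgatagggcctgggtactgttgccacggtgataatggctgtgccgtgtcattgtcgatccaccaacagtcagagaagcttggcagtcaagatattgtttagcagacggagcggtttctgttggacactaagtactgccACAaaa
Snora78 (chr17:24719676-24719803, minus strand, in an intron of Snhg9) and Snora26 (chr5:74093530-74093650, plus strand, in Dancr) are shown because their TPM was 0 in 1 or more libraries in spite of their counts. Snora35 (chrX:146994381-146994508, plus strand, in an intron of Htr2c) is shown as a complete H/ACA sequence with no read.
Snora78: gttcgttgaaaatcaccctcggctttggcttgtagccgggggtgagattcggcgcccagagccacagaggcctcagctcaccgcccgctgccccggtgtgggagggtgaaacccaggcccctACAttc
Snora26: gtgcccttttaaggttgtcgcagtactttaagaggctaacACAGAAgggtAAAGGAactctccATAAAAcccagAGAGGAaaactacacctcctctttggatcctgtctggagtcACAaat
Snora35: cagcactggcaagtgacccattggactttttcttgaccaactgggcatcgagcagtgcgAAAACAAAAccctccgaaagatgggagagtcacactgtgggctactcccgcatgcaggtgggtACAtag

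A few RNAs held nearly all of the signal. Values in this paragraph are expected counts, reads shared out among genes by the main gene table, and CPM, which scales counts to a fixed total of annotated gene counts. Scarna10, which in human is the composite guide U85 for spliceosomal U5 RNA, had 29202, 16025 and 22488 expected counts in replicates 1, 2 and 3, or 1096 ± 352 CPM (SD, n = 3). It was the highest member in every library. Scarna2, a C/D-type guide for U2 RNA in human, had 11573, 14208 and 8322 expected counts and was highest in replicate 2. Snora73b had 6374, 2334 and 2679 expected counts and Snora73a had 5326, 3044 and 2301. Both were highest in replicate 1, while replicates 2 and 3 put them in opposite orders. Scarna13, in human the H/ACA guide U93, had 1946, 1427 and 1231 expected counts. Snora74a, known as U19, had 2079, 684 and 1106. Scarna6, in human the composite guide U88, had 1859, 853 and 900. These 7 genes held 98.9% of the members' summed mean count, and Scarna10 alone held 49.2%. All 7 are at least 196 nt long, whereas 37 of 42 Snora genes are shorter than 150 nt.

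**Figure D1:**
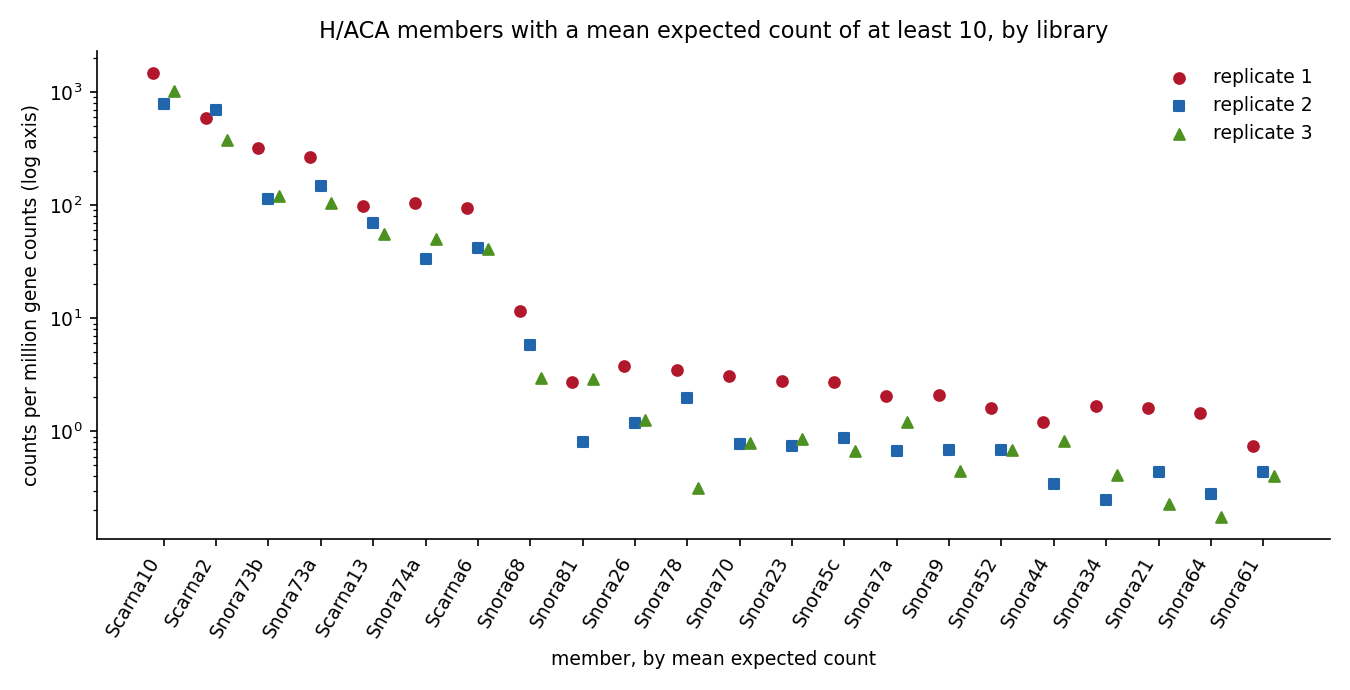
CPM (log axis) of the 22 members with a mean expected count of at least 10, from the highest mean on the left, with a symbol for each library. The 7 members on the left stand apart from the other 15, and replicate 1 is the highest library for 20 of 22.

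The other members were low. The next was Snora68, a guide for 28S ribosomal RNA, with 228, 119 and 65.7 expected counts. It was followed by Snora81 with 54.5, 16.5 and 63.8, Snora26 with 75, 24 and 28, Snora78 with 69, 40 and 7, and Snora70 with 60.6, 15.8 and 17.5. Their order therefore differed between libraries, and Snora78 in replicate 3 was far under its other libraries. In all, 22 of 51 averaged 10 expected counts or more, and the median over members was 3.92. Scarna3a, an H/ACA guide in human, had 4, 2 and 0. There were 14 members at 0 in every library of the main table, where a count of 0 allows up to 0.152, 0.147 and 0.136 CPM in replicates 1, 2 and 3 (3 counts, counting error only). Snora35 was one of them. It is a brain RNA in the serotonin receptor gene Htr2c and was at 0 in both sets of counts.

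TPM gave another picture of the short members, because it divides counts by an effective length. Fragments averaged 213, 260 and 248 nt in replicates 1, 2 and 3, taken from the effective length of the longest entry, and a 131-nt RNA was left with an effective length of 2.06, 1.26 and 1.43 nt. Snora68 thus had 3754 ± 1440 TPM (SD, n = 3), above the 2896 ± 1069 TPM of Scarna2, although Scarna2 had far more counts. With the other quantifier, which gave a 131-nt RNA about 20.3 to 23.5 nt, Snora68 had 548, 230 and 170 TPM. At the low end the effective length was 0. Snora26 was listed at 0 TPM in every library in spite of its counts, and Snora78 at 1799, 0 and 281 TPM. Snora28 and the 127-nt entry of Snora43 were likewise at 0 TPM in replicate 2 with a count above 0. Counts are used below for these reasons.

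As a class, Snora genes held 0.0743%, 0.0314% and 0.0292% of expected counts in replicates 1, 2 and 3, and Scarna genes held 0.226%, 0.160% and 0.150%. The 99 C/D box (Snord) genes, guides of 2′-O-methylation, held 0.0794%, 0.0300% and 0.0414%. In counts all 3 classes were highest in replicate 1. In TPM the Snora share was 3.28%, 2.36% and 1.99%, and the Snord share was 12.4%, 3.78% and 5.31%. The Scarna share of TPM was 1.46%, 1.48% and 1.44%, nearly level and highest in replicate 2.

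The spread between libraries was wide, and replicate 1 was the highest library for most members with enough counts to test. By CPM 20 of the 22 members averaging 10 counts or more were highest in replicate 1, against 16.2% of all genes, and their median ratio of replicate 1 over the mean of replicates 2 and 3 was 2.56, against 0.781 for all genes. The ratio ran from 1.09 for Scarna2 to 6.39 for Snora64. In a Poisson chi-square test on rounded counts with TMM factors from edgeR, 21 of 22 members varied beyond counting error (adjusted p under 0.05), and 68.8% of all 14200 genes tested did. Of the members 20 of 22 were called and highest in replicate 1, and 19.5% of all genes were. For replicate 2 this was 1 of 22 against 24.3%, and for replicate 3 it was 0 of 22 against 25%. Snora61, also highest in replicate 1, had an adjusted p of 0.132 with edgeR factors. Snora81 was highest in replicate 3 by CPM and in replicate 1 after TMM scaling, and Scarna2 was highest in replicate 1 when DESeq2 size factors were used, which made that count 21. The coefficient of variation beyond Poisson had a median of 69.8% over members and 20.1% over all genes. It was largest for Snora64 (113%), Snora34 (105%), Snora21 (102%), Snora70 (90.9%), Snora9 (88.5%) and Snora78 (86.1%). Snora64, which lies in Rps2, had 28.8, 5.74 and 3.84 expected counts. Snora34, which lies in Kansl2, had 33, 5 and 9. Snora21, in Rpl23, had 32, 9 and 5, and Snora9, in Snhg15, had 41.8, 13.9 and 9.89. Each of these had replicate 1 well above both others. Scarna2 was called and highest in replicate 2. The 11 members that were at 0 in the main table and above 0 in every library of the other quantifier were not in this test. With that quantifier 2 of 11 were highest in replicate 1 by CPM, and their median ratio of replicate 1 over the mean of replicates 2 and 3 was 0.661. Of all 35 members averaging 10 or more with it, 28 were highest in replicate 1, against 10.4% of all genes. Their median ratio was 2.42, against 0.689 for all genes. Among Snord genes averaging 10 or more, 4 of 4 were highest in replicate 1 in the main table and 12 of 42 with the other quantifier. The median ratios of these Snord genes were 2.08 and 0.944.

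Replicate 1 carried many of these calls. Without it 18 members could be tested, and 9 were called, against 47.5% of all genes. They were Snora73a, Snora74a, Snora68, Snora81, Scarna2, Scarna13, Snora78, Scarna6 and Scarna10, of which 6 were higher in replicate 2 and 3 in replicate 3. Replicate 1 also had the most starting RNA and the shortest fragments, and its share of counts on entries outside the annotation was 0.845%, against 0.282% and 0.179% in replicates 2 and 3. Effective length moved the same way: at 205 nt it was 30.8 nt in replicate 1 and 19.1 and 21.3 nt in replicates 2 and 3, a ratio of 1.52, and for Scarna2 at 414 nt the ratio was 1.22. On TPM, which divides by it, the median ratio of replicate 1 over the others was 1.38 over 20 members and 0.658 over all genes, and 12 of 20 members were highest in replicate 1. The part of starting RNA, fragment length and RNA outside the annotation in the difference was not tested. In bulk RNA fewer cells of a type and less RNA per cell cannot be told apart.

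**Figure D2:**
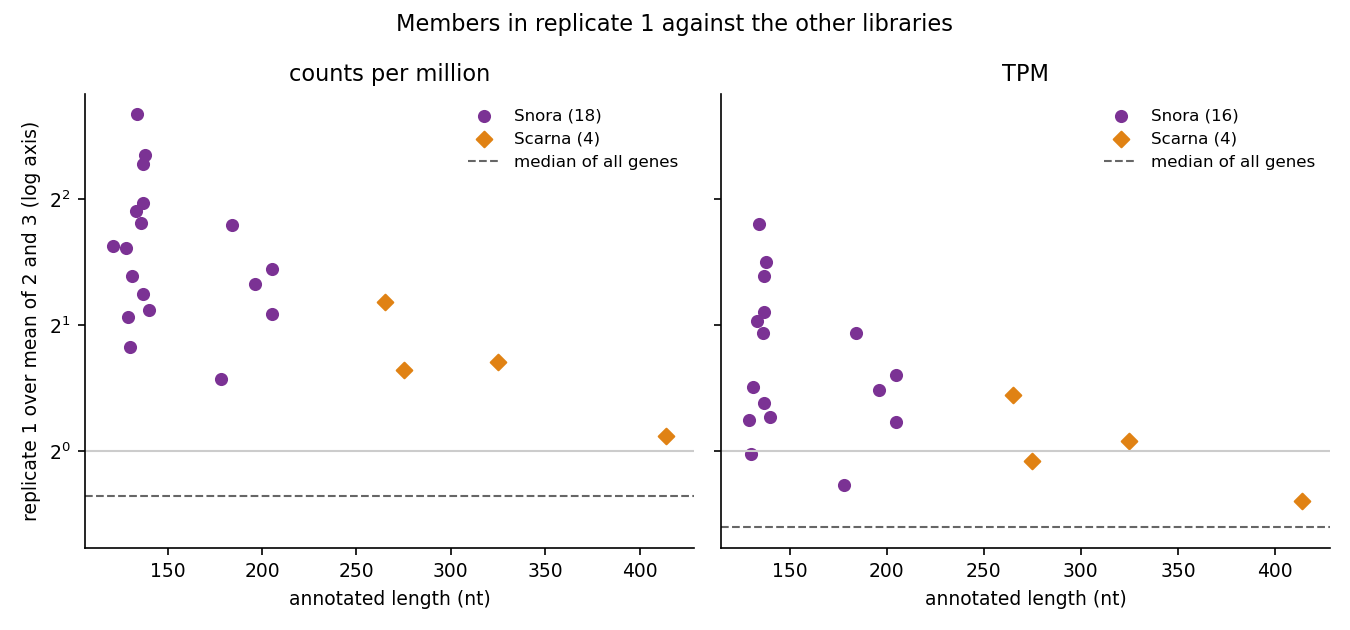
Replicate 1 over the mean of replicates 2 and 3 (log axis) against annotated length in nt, for CPM on the left and TPM on the right, with Snora as circles, Scarna as diamonds and the median of all genes as a dashed line. In CPM every member shown is above 1, with Scarna2 lowest at 1.09; in TPM the values are lower and Scarna2 is at 0.759.

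The 2 quantifiers saw the short members differently. With expected counts of the main table over estimated counts of the other quantifier as the measure, all members summed to 87.3% of the other, while all annotated genes came to 65.0%, 57.5% and 56.7% in replicates 1, 2 and 3. The 7 abundant members held between 81.7% (Scarna2) and 93.4% (Scarna10) of their count with the other quantifier. Scarna10 had 29202, 16025 and 22488 counts in the main table and 30606, 17706 and 24221 with the other quantifier. Of the low members, 11 were at 0 in every library of the main table and above 0 in every library of the other. Scarna17, known in human as a C/D-type guide for U12 and U4 RNAs, was at 0 in all libraries of the main table, and had 204, 89 and 80 counts with the other quantifier. Scarna9, a C/D-type guide for U2 RNA in human, was at 0 and had 39, 71 and 73. Snora30 was at 0 and had 44, 41 and 63. Snora2b was at 0 and had 19, 32.0 and 22.9. Snora31 had 2, 1 and 1 in the main table and 43, 50 and 60 with the other quantifier, and Scarna3b had 0, 1 and 0 against 8, 17 and 16 with the other quantifier. With at most 3 counts over all libraries, Scarna17 was at most 0.804% of its count with the other quantifier, Scarna9 at most 1.64%, Snora30 at most 2.03% and Snora2b at most 4.06%. Scarna9 and Scarna17, at 70 and 79 nt, have an effective length of 0 in the main table. The other 9 are 128 nt or longer.

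Log2 ratios of main table over other quantifier were centred on the median of all genes in each library, which was -1.06, -1.30 and -1.50, so a positive value means a smaller loss than the typical gene. With limma, 13 of 35 members were higher (38.9% of 23374 genes were) and 13 of 35 were lower (41.8% were), so the members' counts of calls were near those of all genes. Of the 13 lower members, 11 averaged under 10 in the main table and passed the filter (a mean of at least 10 in either) through the other quantifier alone. The filter thus favoured a lower value for them, but centring left the sign open. Snora15 passed in the same way and was at 0.23 ± 0.23 (SE), not called. Of the 22 members that averaged 10 or more in both tables, 13 were higher and 2 were lower (Snora7a and Snora78). The shares of all genes under that stricter filter were not counted, so this describes the members alone. The highest centred log2 ratios were 1.18 ± 0.13 for Scarna10 (SE, limma adjusted p = 0.00344), 1.14 ± 0.12 for Scarna13, 1.13 ± 0.12 for Snora74a, 1.11 ± 0.12 for Snora73b, 1.08 ± 0.12 for Snora73a and 1.07 ± 0.12 for Scarna6. Without centring 0 members were higher and 26 lower, so the direction of these is only relative to other genes. Snora31 was at -3.21 ± 0.17 (SE, limma adjusted p = 0.000513).

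**Figure D3:**
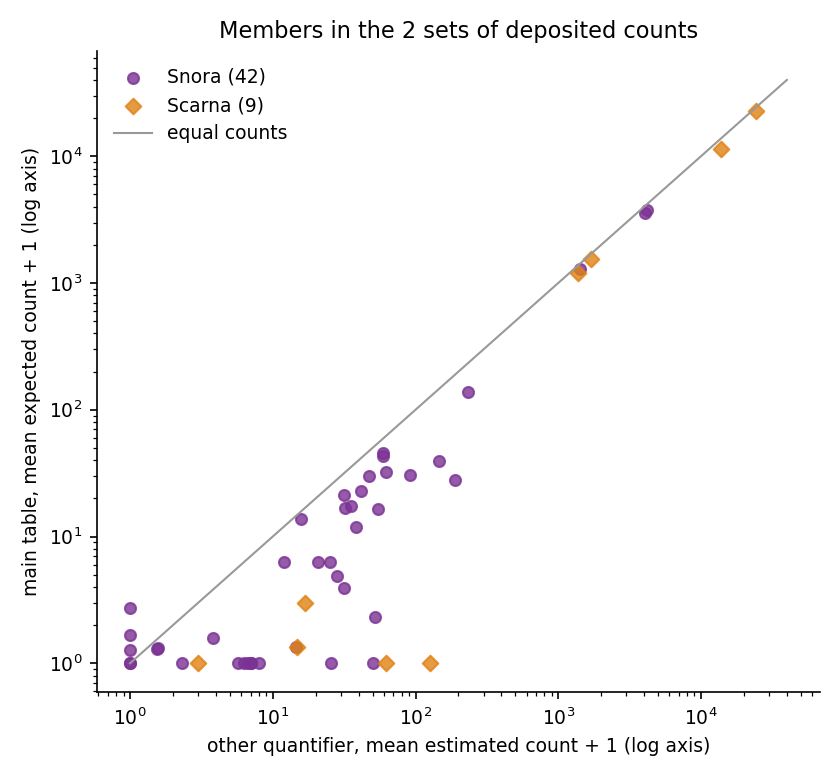
Mean expected count + 1 of the main table (vertical, log axis) against mean estimated count + 1 of the other quantifier (horizontal, log axis) for the 42 Snora and 9 Scarna genes, with the line of equal counts. The 7 abundant members lie by the line, and many low ones lie under it, along the bottom where the main table has 0.

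Copies of a sequence limit several counts. Windows of 31 nt were looked up in all annotated transcripts. Snora73a shared 48.6% of its windows with genes outside its own locus, which were Snora73b and 4 unnamed gene models, and Snora73b shared 45.1%. With overlapping genes on either strand, Scarna10 shared 85.8% (Gm28967 and Ncapd2) and Snora73a and Snora73b 100% (Gm17300 and Snhg3). Snora74a shared 100% (AC121821.1 and Gm49347), Scarna13 14.3%, and Scarna2 and Scarna6 0%. How reads were shared out among overlapping genes also bears on the values over the host below. In all, 24 of 51 members shared a window with a gene elsewhere and 7 shared at least 50%, among them Snora19 (100%), Scarna17 (81.6%), Snora65 (72.0%), Snora81 (61.5%), Snora5c (58.5%), Snora9 (54.4%) and Snora30 (52.0%). Snora43 and Snora16a are each annotated by a pair of overlapping entries. The 139-nt entry of Snora43 had 8.89, 1.43 and 1.45 counts and the 127-nt entry 3.11, 0.57 and 1.55 in the main table, while the other quantifier gave 30, 23 and 29 to the longer one and 0 to the shorter. The counts of all of these are uncertain. Opposite-strand genes overlap 5 members (Gm17300 for Snora73a and Snora73b, Rps2 for Snora78), and the strand setting is not given in the sources used here.

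Most members sit inside other genes. A longer gene on the same strand held 45 of 51, and 35 of those hosts are protein-coding. Ribosomal protein genes held 11 members, genes for translation factors or Tpt1 held 5, and Snhg genes, noncoding hosts of small nucleolar RNAs, held 8. Where several genes contain a member, a protein-coding gene was taken first, so Snora73a and Snora73b, which Snhg3 also contains, are counted under Rcc1. Of the 45, 23 lie in an intron in every transcript of the host, and 18 lie in an exon of some host transcript, often one annotated as a retained intron. Scarna2, Scarna17, Snora17, Snora57 and both Snora43 entries have no such host.

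The abundant members stood far above their hosts. Per kb of annotated sequence, Scarna10 was higher than Ncapd2, a condensin subunit, by 13.16 ± 0.30 on the log2 scale (count per kb + 1, SE, limma adjusted p = 3.5e-06), with 13.48, 12.42 and 13.59 in replicates 1, 2 and 3. Ncapd2 had 43.1, 50.3 and 29 counts in those libraries. Snora73b and Snora73a were higher than Rcc1, the chromatin-bound exchange factor of Ran, by 10.38 ± 0.29 and 10.35 ± 0.20 (limma adjusted p = 4.9e-06 and 3.5e-06). Rcc1 had 55, 47 and 33 counts. Snhg3 also contains the pair, and the values of the pair over Snhg3 were not computed. Scarna13 had 4604 counts over the 3 libraries and its host Snhg10 had 2, a ratio per kb of 4428 with a 95% counting interval of 1226 to 36565. Snora78 had 116 counts and Snhg9 was at 0 in all libraries, so Snora78 was at least 55.3-fold higher per kb (a floor of 3 counts over the libraries). Snora74a stood over Gm28285, which had 1.14 counts, and the gene AC121821.1 also contains it. Snora26 was higher than the noncoding RNA Dancr by 4.85 ± 0.47 and Scarna6 than the autophagy gene Atg16l1 by 4.18 ± 0.36 (limma adjusted p = 0.000444 and 0.000295). The value of Snora9 over Snhg15 was 1.38 ± 0.34 with all libraries, and 1.55 with a limma adjusted p of 0.133 without replicate 2.

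Over all hosts 12 of 44 members were higher (3.41% of 1699 small noncoding genes inside a longer gene were) and 25 of 44 were lower (94.8% were). The median log2 value was -2.84 over members, -5.17 over all such genes and -6.59 over 91 Snord genes, of which 4 were higher and 87 lower. Of the 25 lower members, 23 averaged under 10 counts and passed the filter through the host alone, and the other 2 were Snora81 and Snora64. The filter is on counts and the test on counts per kb, so it favoured a lower value for these 23 without fixing it. Snora15, among the 23, averaged 5.33 counts but 40.7 per kb, while the host gene Zbed3 averaged 11.7 per kb. All small noncoding genes passed through the same filter (10 or more in either), so their shares and medians depend on it too. How many of them passed through the host alone was not counted. Of the 12 higher members, 3 (Snora74a, Scarna13 and Snora78) passed through the small RNA alone, which fixed their direction, as each is also shorter than its host. Where member and host both averaged 10 or more, 9 of 18 members were higher and 2 lower. The shares of all small noncoding genes under that stricter filter were not counted, so this describes the members alone. Of the 25, 12 were at 0 in every library, and with members at 0 set to their bound, and Snora78 at its own, the median was -1.54. In the main table, with 3 counts over the libraries as floor, Snora19 was at least 87.1-fold lower per kb than Eif3a. Snora36b was at least 25.1-fold lower than Rab3gap2, and Snora20 at least 14.9-fold lower than the chaperonin gene Tcp1. Snora30 was at least 16.5-fold lower than Gm42715 (Srcap also contains it). With the other quantifier Snora19, Snora36b, Snora20 and Snora30 had 18, 17, 18 and 148 counts over the libraries. The bounds, and the directions above, hold for the main table alone. With the other quantifier 17 members were higher and 13 lower, and Snora30 and Scarna9 turned to 2.38 and 2.58 above their hosts on the log2 scale (limma adjusted p = 0.00404 and 0.00133). With deposited TPM 19 were higher and 14 lower.

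By kind of host, 8 members were in Snhg genes, without Snora73a and Snora73b, which were counted under Rcc1 and were higher. Of these 8, 5 were higher and 3 lower, and the 3 lower ones passed through the host alone. Of the 5 higher ones, 2 (Scarna13 and Snora78) passed through the small RNA alone, so the filter fixed their direction. The other 3 averaged 10 or more in member and host. Snhg12 holds 4 of these: Snora44 was higher by 1.55 ± 0.27 and Snora61 by 1.09 ± 0.22 (limma adjusted p = 0.00374 and 0.00599), while both Snora16a entries were at 0. Of 11 members in ribosomal protein genes 1 was higher, 6 were lower and 4 did not pass the test, and 5 of the 6 lower ones passed the filter through the host alone. All 5 members in translation factor genes or Tpt1 were lower, 4 of them through such a filter (Snora19, Snora41, Snora31 and Snora28), and Snora31 was at 0.043 on the log2 scale with the other quantifier. These counts are to be read beside the 94.8% of all small noncoding genes that were lower and the 3.41% that were higher. Those shares depend on the same filter. Of the 18 members that averaged 10 counts or more in a host that did too, 6 had their highest CPM in the same library as the host. They were Snora73a and Snora73b with Rcc1, Snora44 and Snora61 with Snhg12, Snora9 with Snhg15 and Snora81 with Eif4a2. Snora9 had 41.8, 13.9 and 9.89 expected counts, and Snhg15 had 87.2, 69.1 and 56.1. Inside ribosomal protein genes 0 of 6 did so. The share of all small noncoding genes that did so was not counted. The members in the 11 ribosomal protein hosts summed to 423, 178 and 135 expected counts in replicates 1, 2 and 3, highest in replicate 1, and the hosts summed to 2412, 7070 and 2588, highest in replicate 2. Within 1 gene, Snora7a had 40.7, 13.8 and 26.8 counts, and Rpl32 had 66.3, 350 and 74.2.

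Sequence matched the label for Snora genes and less so for Scarna genes. An ACA 3 nt before the 3′ end was found in 35 of 42 Snora genes, 2 of 9 Scarna genes (Scarna13 and Scarna8) and 0 of 99 Snord genes, searched on the RNA strand. ANANNA in that middle part was found in 39 of 42, 6 of 9 and 45 of 99, and may overlap itself. Predicted minimum-energy folds had at least 2 hairpins side by side in 41 of 42 Snora genes, 4 of 9 Scarna genes and 20 of 99 Snord genes. The letters TGAG, the Cajal body box, stood somewhere in 19 of 42 Snora, 8 of 9 Scarna and 82 of 99 Snord genes, so these letters alone set no class apart. Scarna2, Scarna9 and Scarna17 are C/D guides in human and have no ACA at this place in the mouse entry. Nor does Snora74a. Median lengths were 132.5 nt for Snora, 140 nt for Scarna and 84 nt for Snord genes.

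The proteins that make and hold these RNAs were transcribed at low to moderate levels. Values are TPM of the main table, which is per length (mean ± SD, n = 3). Of the 4 core proteins, Dkc1, the pseudouridine synthase, had 5.39 ± 2.11 TPM, Gar1 had 2.68 ± 0.20, Nhp2 had 2.38 ± 1.71 and Nop10 had 0.933 ± 0.660. Of the 5 assembly factors, the highest were Shq1, a chaperone of dyskerin, with 2.27 ± 0.31 TPM, Ruvbl1 with 2.15 ± 0.33 and Ruvbl2 with 1.59 ± 0.28, and the lowest was Naf1, which precedes Gar1 on the particle, with 1.06 ± 0.46. Of 6 Cajal body and trafficking genes, Tgs1, the cap hypermethylase, had 33.9 ± 8.9 TPM, Tcof1 had 16.3 ± 3.8, Smn1 had 9.37 ± 2.07 and the lowest, Nolc1, had 1.85 ± 0.58. Of 11 genes for 3′ end processing and decay, Tent4a, a poly(A) polymerase, had 91.7 ± 16.2 TPM, Rbm7 had 27.6 ± 9.2, the exosome helicase Mtrex had 23.1 ± 4.0 and the lowest, Exosc3, had 1.78 ± 0.85. Of 12 pseudouridine synthases that need no guide, Trub2 had 9.33 ± 3.44 TPM, Pus10 had 9.23 ± 1.22, Rpusd4 had 5.2 ± 1.03 and the lowest, Rpusd2, had 0.347 ± 0.404. Terc, the H/ACA RNA of telomerase, had 1.59, 3.32 and 2.00 TPM on 8, 12 and 8 counts. In the test between libraries 21 of 37 of these protein genes were called, against 68.8% of all genes. Of these, 6 were highest in replicate 1, 9 in replicate 2 and 6 in replicate 3, where the shares of all genes were 19.5%, 24.3% and 25%. The median coefficient of variation was 14.3% over the listed genes and 20.1% over all genes.

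Gene counts per library were 19751051, 20372850 and 21984526 in replicates 1, 2 and 3. All 8 macrophage markers had a mean of at least 1 TPM, and their summed level was 493, 1457 and 386 TPM. Of 24 markers of T, B, NK, neutrophil, erythroid and stromal cells, 1 reached it (Alas2) and 8 were at 0 throughout, Cd3e among them. Their sum was 2.78, 6.19 and 3.58 TPM. All marker values here are of the main table. With the other quantifier Cd3d had 6.39, 6.43 and 10.2 TPM in replicates 1, 2 and 3. Cxcr2, at 0 in the main table, had 3.36, 3.13 and 5.25 there. Of the macrophage sum, Lyz2, which encodes lysozyme, had 88.9, 873 and 39.0 TPM, while the mannose receptor gene Mrc1 had 118, 107 and 127, so the markers did not share an order of libraries. Their part in the differences between libraries was not tested.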

How the data were processed

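Total RNA of the chromatin fraction was measured in 3 libraries of 1 group. For each, the authors deposited a gene table of expected counts (reads shared out among genes, so not whole) and TPM, made from transcriptome alignments to mm10 with annotation M21 per the deposited note. A transcript table quantified from the reads themselves, with estimated counts and TPM, was also deposited and is called the other quantifier here and summed per gene. Layouts are those of RSEM and kallisto; the tools, their versions, trimming and the strand used in counting were not given in the sources used here. TPM as deposited divides by effective length.

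The members, lists and tests were chosen with earlier results of these data known. Members were matched by symbol in the other quantifier's table, and by gene ID in the gene tables. Entries outside the annotation (0.845%, 0.282% and 0.179% of expected counts) were left out. The 3 comparisons were run with R 4.3.3, each with Benjamini-Hochberg adjustment over all features tested and a threshold of 0.05. Variation between libraries was tested with a Poisson chi-square on expected counts, rounded, where a gene averaged 10 or more (edgeR 4.0.16, TMM). Main table over other quantifier was tested with limma 3.58.1 on centred log2 ratios of counts + 1, and small RNA over host with limma on log2 ratios of counts per kb + 1 by annotated exonic length, with a mean of at least 10 in either. Where several genes contain a member, a protein-coding gene was taken first and then the one with the shortest span. On simulated data the tests recovered 57%, 52% and 40% of the small changes (1.5-fold for variation, a log2 shift of 1 for the ratios) and 96%, 100% and 100% of the large ones (3-fold, a log2 shift of 3). They made 5 false calls of 14209, 7 of 23374 and 3 of 1699. Counts were simulated as Poisson for variation, and ratios as normal with a common spread for the others. In the real data 68.8% of genes varied beyond counting error, so these are not error rates of the real tests.

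Named members are the 12 highest by count, the 8 highest by TPM, Scarna genes averaging 1 count or more, the 6 largest and smallest over the other quantifier, the 6 largest and 4 smallest over the host, the 6 with the largest variation, and members that share sequence; of each list, the 3 highest and the lowest. Other members named were chosen after their values were seen. The value of a member over 1 host is not reported here. Folds were predicted with ViennaRNA 2.7.2. Floors are 3 counts, and they and the intervals reflect counting alone, as several reads can come from the same molecule. Alternatives were DESeq2 1.42.0 size factors, total counts, other filters and pseudocounts, TPM, the other quantifier and leaving out each replicate.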

Additional observations from a re-analysis of the deposited data

How the results depend on the processing

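With 1 group there are no pairs of samples, and no paired analysis was possible because the replicate numbers name libraries of the same group. In the variation test, 21 members varied with DESeq2 size factors or with total counts. With a mean of at least 50 counts, 8 members varied and 7 of them were highest in replicate 1, since fewer members were tested. Leaving out each replicate gave 9 to 20 varying members. Without a filter 20 members were lower than with the other quantifier. Without centring 0 were higher and 26 lower. Only members named by the rules above were followed one by one across settings, so the lists that follow leave out others, such as Snora52 and Snora5c. Without centring these turned negative on the log2 scale: Snora73a (-0.21), Snora9 (-1.01), Snora70 (-0.999), Snora34 (-1.02), Snora73b (-0.17), Snora74a (-0.15), Snora68 (-0.83), Snora64 (-0.23), Snora81 (-0.32), Scarna2 (-0.30), Scarna13 (-0.14), Scarna6 (-0.22), Scarna10 (-0.11) and Snora26 (-0.52). Over the host, deposited TPM gave 19 higher and 14 lower members and turned Snora21 (2.68), Snora70 (2.92), Snora64 (2.50), Snora81 (0.26) and Snora26 (-3.27, from its TPM of 0). The other quantifier gave 13 lower and turned Snora70 (0.35), Snora31 (0.043), Snora30 (2.38), Snora2b (0.75), Scarna9 (2.58) and Scarna3b (0.59). Leaving out each replicate gave 10 to 13 higher and 18 to 27 lower members, and put Snora34 between -0.57 and 0.70 over its host. Shares averaged 0.0450% for Snora, 0.178% for Scarna and 0.0503% for Snord genes; in TPM they were 2.54%, 1.46% and 7.17%, and in TPM of the other quantifier 0.698%, 0.832% and 1.43%. The Scarna share of estimated counts was 0.122%. The cause was not tested. Calls of Scarna2 (without replicate 3) and of Snora81 and Snora44 (without replicate 2) in the variation test, of Snora68 against the other quantifier (without each replicate in turn), and of Snora64, Snora81 and Scarna3a against the host (without replicate 2 or 3) were lost with 2 libraries left. Depth limits the members under a mean of 10 counts, which were not tested for variation. In the main table, members at 0 numbered 14, and 11 of these were above 0 in every library with the other quantifier, so the floor there is no limit on their level.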
